A study of Mus musculus with 9 samples.

Results

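The 40 genes described here are the mouse subunits of the transcription factor NF-kB, the proteins that hold it back or switch it on, its feedback regulators and a set of its classical target genes. They were taken by symbol from a list that leaves out chemokines, the IL-1 family and Toll-like receptors. All 40 had a row among the 55536 gene IDs of the count table, and all 40 passed the filter on low counts that 13815 genes passed. They were measured by RNA sequencing in 9 libraries of bone marrow-derived macrophages (BMDM), which are marrow cells turned into macrophages by the growth factor M-CSF. All recipient cells were of WT genotype and came from male mice of 6 to 12 weeks. They received M-CSF at 25 ng/mL over 6 days in medium with 10% fetal bovine serum. For the next 18 hours, 3 cultures received EKO-BMDM-exo, exosomes of BMDM from ApoE-deficient mice, and 3 received WT-BMDM-exo, exosomes of wild-type BMDM, both at 2e+09 particles/mL. The other 3 received PBS, the vehicle, and no exosomes. Exosomes are small vesicles that cells release. The donor cells differed in the gene for the lipid carrier ApoE, whereas the sequenced cells did not, and Apoe itself had 18720 to 19390 CPM after ApoE-deficient exosomes, 19450 to 20160 CPM after wild-type exosomes and 18930 to 20080 CPM after PBS. The question was which transcripts of recipient macrophages differ after each kind of exosome. The sources name the replicates biological but do not say whether they came from separate mice or exosome preparations, so the p-values speak only of variation among the libraries at hand.

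NF-kB proteins are dimeric transcription factors that wait in the cytoplasm bound to inhibitors of the IkB family. Signals from cytokine or microbial receptors activate the IKK kinases, which mark IkB for destruction and free the dimers to enter the nucleus. Among the genes that NF-kB then switches on are many of its own inhibitors, so that the level of these feedback transcripts can follow the activity of the pathway. That activity was not measured here. In macrophages the pathway is best known for inducing inflammatory mediators, adhesion molecules and survival genes.

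A library held 28581306 to 35929596 counts. Of 10 macrophage markers all were detected, and their summed level was 21610 to 22580 CPM after ApoE-deficient exosomes, 21940 to 22540 CPM after wild-type exosomes and 23660 to 24880 CPM after PBS, so both exosome groups lay below PBS. Lyz2 made up most of that sum. By the same edgeR test 8 of the 10 were lower after ApoE-deficient exosomes and 0 higher, and 6 were lower and 1, Cd68, higher after wild-type exosomes. The log2 fold changes after ApoE-deficient exosomes were -0.58 for Fcgr1, -0.46 for C1qa, -0.44 for Itgam and -0.28 for Csf1r, and after wild-type exosomes -0.18, -0.28, -0.36 and -0.22 for the same genes. Cd68 had 0.06 and 0.09. Exons of another gene on the same strand cover 68.7% of the exon length of Itgam, which limits its value. For Csf1r, exons of a gene on the opposite strand cover 15.1%. The 6 stromal markers, mostly Col1a1 and Col1a2, summed to 5.68 to 24.4 CPM after ApoE-deficient exosomes, 16.6 to 29.95 CPM after wild-type exosomes and 8.74 to 62.5 CPM after PBS. The B cell gene Ighm had 28.9 to 54.8 CPM over all libraries, with Cd79a at 0. Summed markers of T and NK cells, mast cells, dendritic cells and red cells stayed under 10 CPM in every library, with Hba-a1 and Mcpt8 at 0. The 9 neutrophil markers summed to 2.43 to 12.5 CPM after ApoE-deficient exosomes, 6.99 to 18.7 CPM after wild-type exosomes and 11.8 to 20.5 CPM after PBS. Of the 5 endothelial markers, Vwf had 182 to 189.9 CPM after ApoE-deficient exosomes and 166 to 188.5 CPM after wild-type exosomes, above its 131 to 149 CPM after PBS. Pecam1 went the other way without a call, at 0.348 to 0.6995 CPM and 0.261 to 0.818 CPM after ApoE-deficient and wild-type exosomes and 1.06 to 1.18 CPM after PBS. Kdr overlapped between the groups at 11.4 to 18.5 CPM, and Cdh5 and Tek stayed under 1 CPM. The part of these marker differences in the results on NF-kB genes was not tested. In bulk RNA, fewer cells of a type and less RNA per cell cannot be told apart. Wild-type exosome replicate 3 stood apart on principal component 1 at 57.5, against -16.8 to 3.43 in the other libraries. On component 2, ApoE-deficient replicate 2 lay at 38.0 and wild-type exosome replicate 2 at -45.4, against -7.07 to 17.8 elsewhere.

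Some NF-kB inhibitors and target genes were lower after either kind of exosome than after PBS. After ApoE-deficient exosomes, 10 of the 40 members were lower than after PBS and 0 were higher, at an edgeR adjusted p under 0.05. Over all genes tested, the shares called were 2.41% lower and 1.82% higher. After wild-type exosomes, 10 members were again lower and 0 higher, against 2.18% and 1.93% of all genes. In a list of 40, counts of 0 higher are near these small shares. The members were chosen with earlier results of these data known, so their counts describe this list and are no independent test of it. At an unadjusted p under 0.05, 20 members differed from PBS after ApoE-deficient exosomes and 13 after wild-type exosomes. Among all 13815 genes tested, 1805 and 1936 did so. Of the 20 members, Ikbkg, Malt1, Plaur and Pim1 were higher than after PBS. DESeq2 and limma-voom also called 0 members higher at the adjusted threshold. The members called in both comparisons were Nfkbie, Nfkbiz, Bcl3, Ikbke, Tnip3, Icam1, Marcksl1 and Ehd1, which is 80.0% of either list of 10. These comparisons share the PBS libraries, which by itself can bring the same gene into both. The overlap of calls over all genes was not counted, so the 80.0% is not shown to be particular to these members. Without wild-type exosome replicate 2 or 3, the libraries that stood apart, 7 members were lower after wild-type exosomes, and without ApoE-deficient replicate 2, 9 were lower after ApoE-deficient exosomes. Nfkbia and Birc3 passed only after ApoE-deficient exosomes, and Nfkb1 and Tnfaip2 only after wild-type exosomes. Of these 4, Tnfaip2 alone differed between the exosomes by the direct test. In all, 12 members passed the test of any difference among the 3 groups, against 5.28% of all genes.

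The median log2 fold change of the 40 members was -0.10 after ApoE-deficient exosomes, beside -0.0005 over all genes tested, and -0.11 after wild-type exosomes, beside -0.0033. Of the 40, 29 had a log2 fold change below 0 after ApoE-deficient exosomes and 27 after wild-type exosomes, whether or not they passed. Among all 13815 genes tested, 6931 and 7015 lay below 0. In 17 members all libraries of ApoE-deficient exosomes lay below all PBS libraries, and in 4 they lay above, against 9.24% and 9.06% of all genes. For wild-type exosomes these counts were 12 and 2, against 8.87% and 8.59%. Those above PBS were Ikbkg, Malt1, Tnip1 and Pim1 after ApoE-deficient exosomes and Ikbkg and Gadd45b after wild-type exosomes. In each exosome library the median was below PBS. The median member lay 0.05, 0.13 and 0.15 log2 units below its PBS mean in the ApoE-deficient libraries. In the wild-type exosome libraries it lay 0.13, 0.06 and 0.12 below. The PBS libraries lay within 0.0126 of that mean. They make up the mean, which holds them near it, so this value does not measure their spread.

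**Figure D1:**
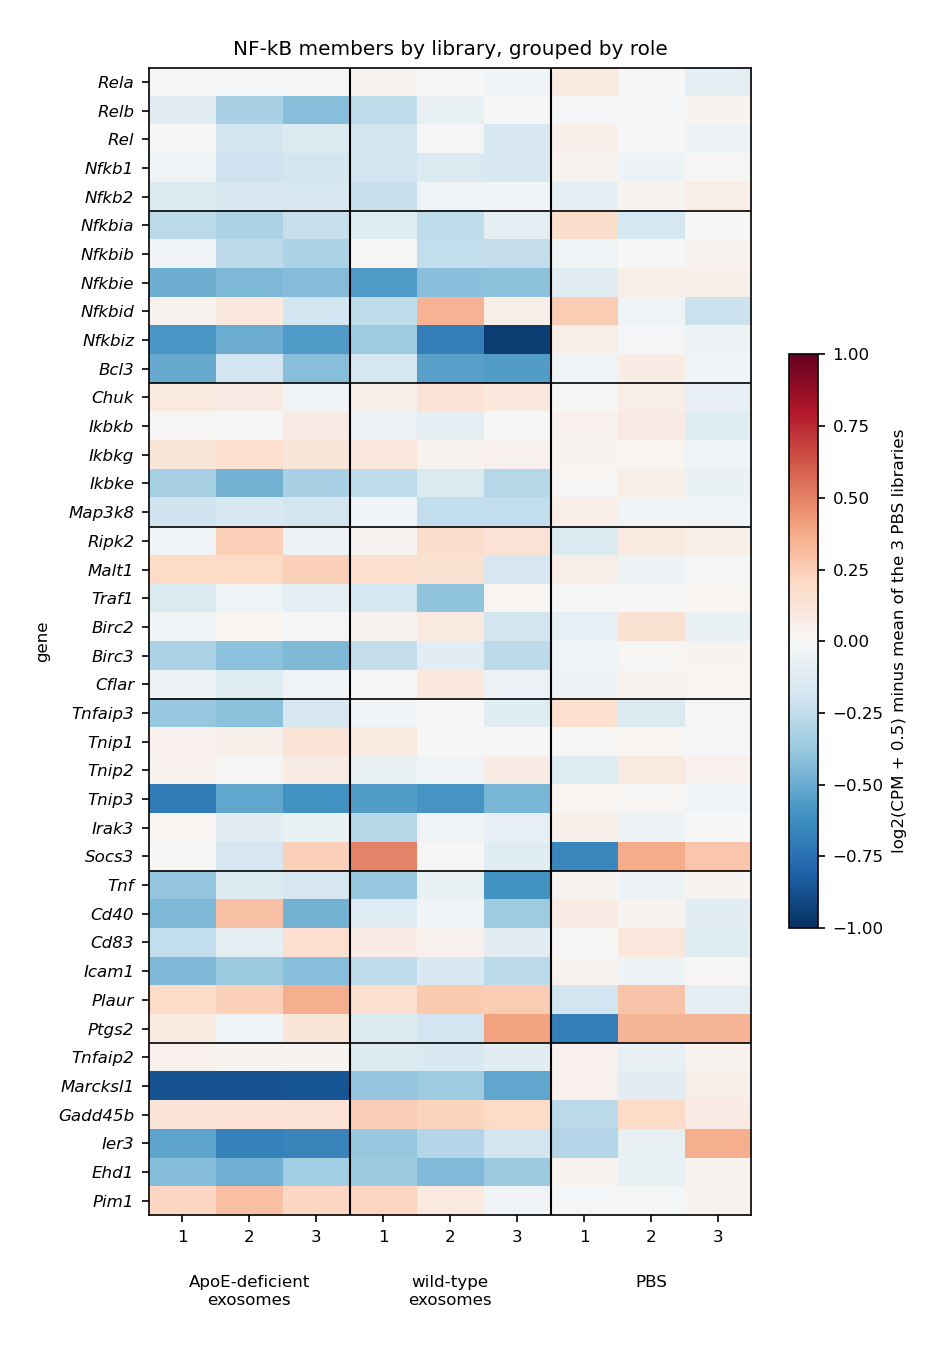
Each square is a library of a gene, coloured by log2(CPM + 0.5) minus the mean of the 3 PBS libraries, with columns for ApoE-deficient exosomes, wild-type exosomes and PBS and black lines between roles. Marcksl1, Tnip3, Nfkbiz, Nfkbie, Ehd1 and Icam1 are blue in all 6 exosome libraries, while Rela and Chuk are near white.

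Promoter sequences were searched in every member with an entry, whether or not it fell. RefSeq (GRCm38.p6) gave a window of 250 bases before to 50 bases after the start for 30 of the 40 members. The 10 without an entry were Nfkbiz, Ehd1 and Nfkb1, which were called, and Relb, Ikbkb, Map3k8, Ripk2, Malt1, Cd40 and Cd83, which were not. Both strands were searched for the kappaB consensus, the site bound by NF-kB dimers. It occurred in 10 of the 30, against 5.14% of all 27025 genes in the table and 4.51% of all 32851 windows. The members were picked as genes of this pathway, so this share is a description of the list. Among members with a window, it was present in 4 of the 9 that passed the threshold against PBS in at least 1 comparison and in 6 of the 21 that did not. A match says only that the letters are there. Whole windows are shown for Tnip3 and Nfkbie, which were lower after both exosomes and hold a match, and for Marcksl1, which fell furthest after ApoE-deficient exosomes and holds none. Capitals mark the match, the reading direction is 5′ to 3′ on the gene's strand, and the last 50 bases begin at the start site.
Tnip3, chr6:65590148-65590447, plus strand: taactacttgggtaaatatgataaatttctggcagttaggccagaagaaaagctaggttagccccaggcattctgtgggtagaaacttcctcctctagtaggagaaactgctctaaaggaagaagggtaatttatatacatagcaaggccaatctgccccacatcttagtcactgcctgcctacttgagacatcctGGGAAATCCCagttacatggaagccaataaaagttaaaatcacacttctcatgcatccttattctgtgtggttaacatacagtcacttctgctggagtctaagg
Nfkbie, chr17:45555450-45555749, plus strand: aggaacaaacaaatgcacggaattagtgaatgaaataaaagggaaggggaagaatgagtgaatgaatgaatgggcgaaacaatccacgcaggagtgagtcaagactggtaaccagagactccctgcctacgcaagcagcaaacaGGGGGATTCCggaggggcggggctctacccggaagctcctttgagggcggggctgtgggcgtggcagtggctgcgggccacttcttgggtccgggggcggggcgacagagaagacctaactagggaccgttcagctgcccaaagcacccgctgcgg
Marcksl1, chr4:129513331-129513630, plus strand: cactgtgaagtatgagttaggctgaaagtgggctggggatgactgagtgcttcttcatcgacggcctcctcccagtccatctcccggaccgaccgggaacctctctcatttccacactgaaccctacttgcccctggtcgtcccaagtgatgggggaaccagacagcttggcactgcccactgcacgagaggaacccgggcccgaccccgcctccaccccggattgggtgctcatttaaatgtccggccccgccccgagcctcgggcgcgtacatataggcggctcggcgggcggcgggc

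The match of Tnip3 began 54 bases before its RefSeq start, which lies inside the GENCODE span of the gene, and read as the consensus on both strands, and that of Nfkbie began 106 bases before its start. The windows of Ikbke and Icam1 held no match to the consensus. The search took exact matches only, and the Icam1 window holds a stretch that differs from the consensus only at its first base. A lack of match therefore does not mean that a window lacks a site. Shorter stretches show a match each of members that fell (Bcl3, Nfkbia) and of some that passed in neither comparison with PBS: the feedback genes Tnfaip3 and Tnip1, the subunit gene Rel and the target Ier3. The matches of Nfkb2 and Nfkbid, also called in neither, and another match of Tnfaip3 are not printed. The capitals of Tnip1 and Rel are runs of overlapping matches.
Bcl3, chr7:19822734-19822763, minus strand: tcggcggcagGGGAAGTCCCgctgcccggc
Nfkbia, chr12:55492657-55492686, minus strand: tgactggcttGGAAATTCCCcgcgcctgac
Tnfaip3, chr10:19015403-19015432, minus strand: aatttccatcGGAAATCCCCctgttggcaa
Tnip1, chr11:54962978-54963007, minus strand: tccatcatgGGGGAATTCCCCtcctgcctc
Rel, chr11:23771042-23771070, minus strand: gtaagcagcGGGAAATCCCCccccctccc
Ier3, chr17:35821611-35821640, plus strand: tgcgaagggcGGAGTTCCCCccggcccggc
Bcl3 and Nfkbia passed the threshold after ApoE-deficient exosomes, and Tnip1, which holds the longest run of capitals shown here, had a log2 fold change of 0.07 ± 0.044 (SE).

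Of the 5 subunits that form the NF-kB dimers, 0 passed after ApoE-deficient exosomes and 1 after wild-type exosomes. Over all genes tested, 4.23% and 4.11% passed in either direction. In a set this small, here and in the roles below, a count of 0 or 1 says little about the role. Rela encodes p65, the main activating subunit, and had 178, 178 and 181 CPM after ApoE-deficient exosomes, 185, 181 and 177 CPM after wild-type exosomes and 192, 179.8 and 169 CPM after PBS. The groups overlapped fully. Its log2 fold change was -0.01 ± 0.045 (SE) for ApoE-deficient exosomes against PBS, with a 95% interval of -0.10 to 0.08, and 0.0036 ± 0.045 for wild-type exosomes against PBS.

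Nfkb1 (ENSMUSG00000028163, chr3:135584655-135691547) encodes p105, the precursor of p50. It had 172, 152.5 and 155 CPM after ApoE-deficient exosomes, 154, 159 and 157 CPM after wild-type exosomes and 180.1, 170.1 and 177 CPM after PBS. All wild-type exosome libraries lay below PBS, whereas ApoE-deficient replicate 1 lay within the PBS range. The log2 fold change was -0.17 ± 0.047 for wild-type exosomes (adjusted p = 0.0323) and -0.14 ± 0.047 for ApoE-deficient exosomes (adjusted p = 0.106). Leaving out any wild-type exosome library, PBS replicate 1 or PBS replicate 3 ended the call for wild-type exosomes (adjusted p = 0.0673 to 0.151). Leaving out ApoE-deficient replicate 1 gave a call for ApoE-deficient exosomes (adjusted p = 0.0216).

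Relb, the subunit of the noncanonical pathway, had 33.1, 28.4 and 26.4 CPM after ApoE-deficient exosomes, 29.9, 33.9 and 35.6 CPM after wild-type exosomes and 35.5, 35.3 and 36.4 CPM after PBS. The ApoE-deficient libraries all lay below PBS, without a call (log2 fold change -0.29 ± 0.096, adjusted p = 0.0965). With ApoE-deficient replicate 1 left out, the adjusted p was 0.0340. Rel, which encodes c-Rel, had 96.6, 85.1 and 87.6 CPM after ApoE-deficient exosomes, 84.9, 95.4 and 86.4 CPM after wild-type exosomes and 99.8, 96.9 and 92.9 CPM after PBS. Nfkb2, the precursor of p52, had 70.8, 70.1 and 69.1 CPM after ApoE-deficient exosomes, 66.3, 75.4 and 76.3 CPM after wild-type exosomes and 73.1, 79.3 and 81.4 CPM after PBS. Neither gene passed in any comparison (lowest adjusted p = 0.250), and both had their highest library in PBS. Exons of other genes cover 18.1% of the exon length of Nfkb2, and whether counting used strand is not stated.

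Of the 6 inhibitors and nuclear cofactors of the IkB family, 4 were lower after ApoE-deficient exosomes and 3 after wild-type exosomes. Over all genes tested, 2.41% and 2.18% were lower. Nfkbiz (ENSMUSG00000035356, chr16:55811375-55838899) encodes IkB-zeta, a nuclear cofactor that is induced by microbial signals. It had 21.2, 22.5 and 21.4 CPM after ApoE-deficient exosomes, 24.8, 19.7 and 16.3 CPM after wild-type exosomes and 33.4, 31.6 and 30.8 CPM after PBS. Every exosome library lay below every PBS library, and wild-type exosome replicate 3 was the lowest of all. The log2 fold change was -0.56 ± 0.12 after ApoE-deficient exosomes (adjusted p = 0.00146) and -0.66 ± 0.12 after wild-type exosomes (adjusted p = 0.000225).

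Nfkbie (ENSMUSG00000023947, chr17:45555703-45563169) encodes IkB-epsilon, a cytoplasmic inhibitor and NF-kB target. Its levels were 20.3, 20.8 and 21.1 CPM after ApoE-deficient exosomes, 19.2, 21.3 and 21.5 CPM after wild-type exosomes and 26.6, 29.8 and 29.7 CPM after PBS. The exosome groups coincided and lay below PBS without overlap, at -0.47 ± 0.104 after ApoE-deficient exosomes (adjusted p = 0.00328) and -0.47 ± 0.104 after wild-type exosomes (adjusted p = 0.00353). Bcl3 (ENSMUSG00000053175, chr7:19808462-19822770), an atypical nuclear IkB protein that binds p50 and p52 dimers, had 21.8, 27.2 and 23 CPM after ApoE-deficient exosomes, 27.4, 21.2 and 21 CPM after wild-type exosomes and 30.2, 32.7 and 30.5 CPM after PBS. All exosome libraries lay below PBS. It fell by 0.38 ± 0.11 on the log2 scale after ApoE-deficient exosomes (adjusted p = 0.0405) and by 0.42 ± 0.11 after wild-type exosomes (adjusted p = 0.0174). The call for ApoE-deficient exosomes ended when any of ApoE-deficient replicates 1 and 3 or the 3 PBS replicates was left out (adjusted p = 0.0714 to 0.247), and that for wild-type exosomes without PBS replicate 2 or wild-type exosome replicate 2 or 3 (0.0955 to 0.127). Bcl3 lies 179 kb from Relb on the same chromosome.

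Nfkbia (ENSMUSG00000021025, chr12:55489410-55492647) encodes IkB-alpha, the inhibitor that NF-kB itself restores after each activation. Its levels were 63.6, 61.3 and 65.2 CPM after ApoE-deficient exosomes, 70.5, 64.1 and 71.5 CPM after wild-type exosomes and 86.3, 67.8 and 76.6 CPM after PBS. The PBS libraries were spread widely, and the ApoE-deficient libraries lay just below the lowest of them. It fell after ApoE-deficient exosomes (-0.28 ± 0.072, adjusted p = 0.0154), a call that ended when ApoE-deficient replicate 1 or 2 was left out (adjusted p = 0.0570 and 0.112), or PBS replicate 1 (0.240, with a log2 fold change of -0.19). After wild-type exosomes its log2 fold change was -0.16 ± 0.072 (adjusted p = 0.276). Nfkbib (IkB-beta) and Nfkbid (IkB-NS) passed in neither comparison, with log2 fold changes of -0.20 and -0.02 after ApoE-deficient exosomes and -0.15 and 0.06 after wild-type exosomes.

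**Figure D2:**
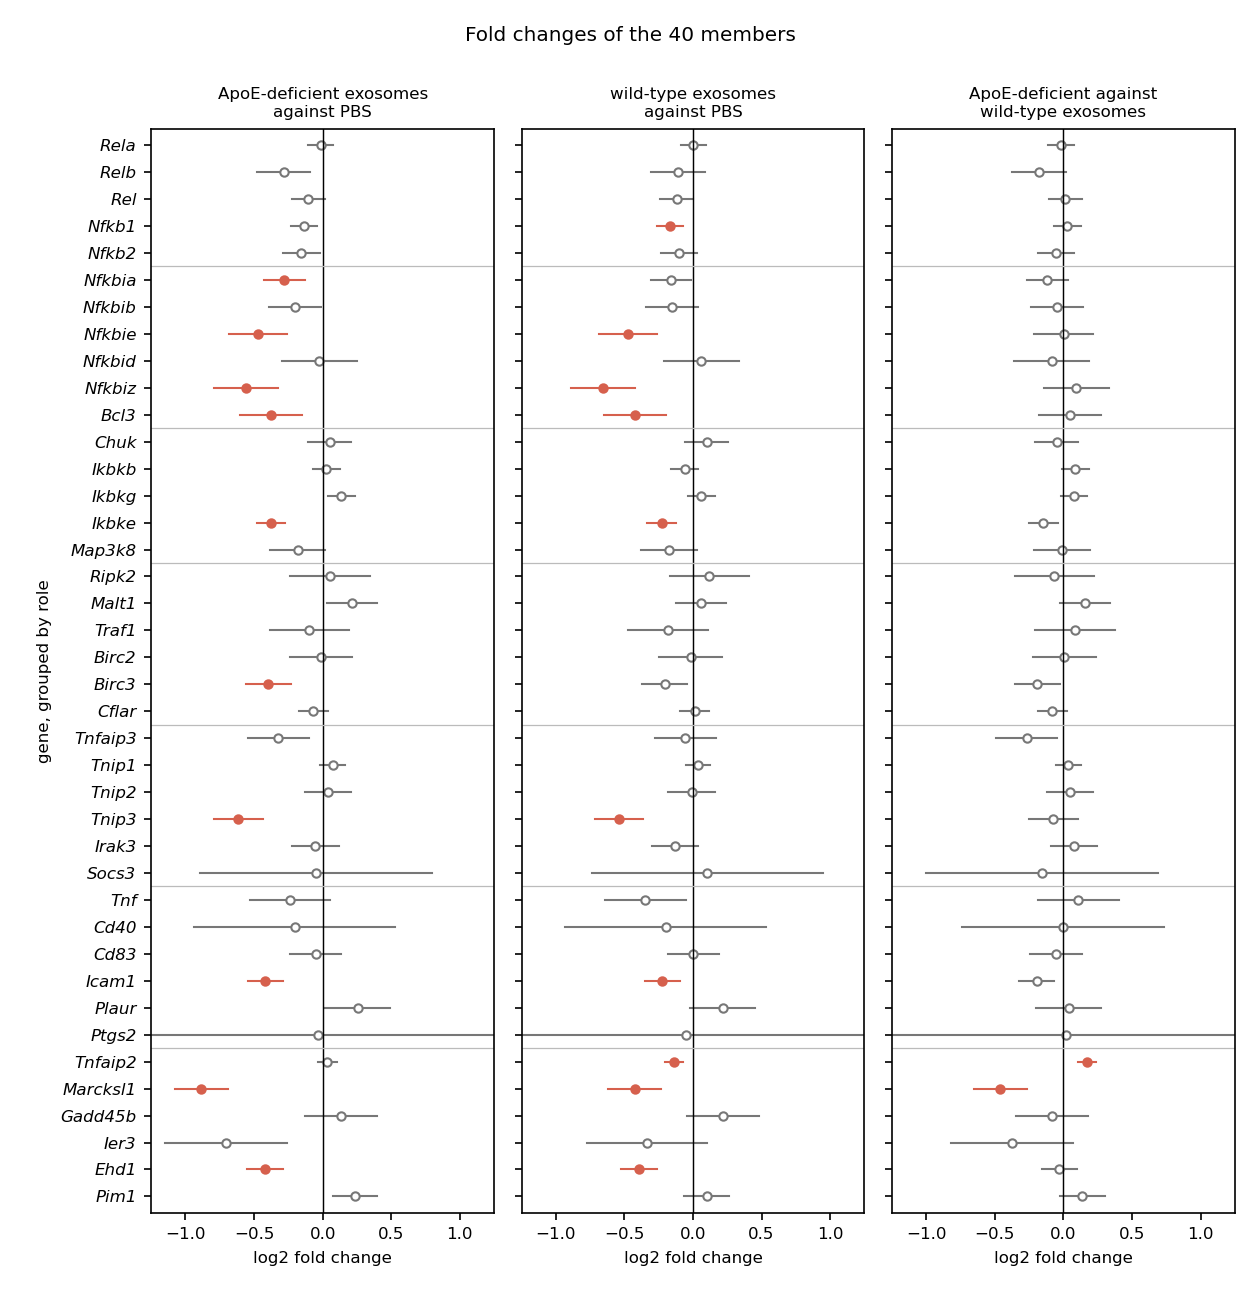
Points are log2 fold changes and lines their unadjusted 95% intervals for the 40 members in the 3 comparisons, filled and red where the edgeR adjusted p was under 0.05, with grey lines between roles. The lines of Ptgs2 run past the axis limits. All red points in the comparisons with PBS lie left of 0, and Tnfaip2 and Marcksl1 are the red points between the exosomes.

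Of the kinases, the IKK complex itself did not pass the threshold, while a related kinase fell. Chuk and Ikbkb encode the catalytic subunits IKK-alpha and IKK-beta, and Ikbkg the scaffold NEMO. Their log2 fold changes lay between 0.03 and 0.14 after ApoE-deficient exosomes and between -0.06 and 0.10 after wild-type exosomes, none of them called. The groups of Ikbkg did not overlap, with ApoE-deficient exosomes highest and PBS lowest. Its log2 fold change after ApoE-deficient exosomes was 0.14 (interval 0.04 to 0.23, adjusted p = 0.111). Ikbke (ENSMUSG00000042349, chr1:131254343-131279606) encodes IKK-epsilon, a kinase related to TBK1 that acts in interferon induction and is itself an NF-kB target. It had 125.3, 113 and 126 CPM after ApoE-deficient exosomes, 132, 142 and 129 CPM after wild-type exosomes and 159, 164 and 150.2 CPM after PBS. The groups were stepped, with no overlap between any pair of them. The difference between the exosomes was -0.15 (interval -0.25 to -0.04) and did not pass (adjusted p = 0.301). The log2 fold change was -0.38 ± 0.052 after ApoE-deficient exosomes (adjusted p = 3.01e-06) and -0.23 ± 0.051 after wild-type exosomes (adjusted p = 0.00428), the second of which ended with PBS replicate 2 left out (adjusted p = 0.0539). Map3k8, the kinase Tpl2 that p105 holds inactive, had log2 fold changes of -0.18 and -0.17 without a call.

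Among adaptors and the cellular inhibitors of apoptosis, a single member passed. Birc3 (ENSMUSG00000032000, chr9:7848699-7873186) encodes cIAP2, a ubiquitin ligase of TNF receptor signalling. It had 37.9, 35.6 and 34.5 CPM after ApoE-deficient exosomes, 40.1, 43.8 and 39.4 CPM after wild-type exosomes and 46.1, 47.8 and 48.3 CPM after PBS. The 3 groups did not overlap, with ApoE-deficient exosomes lowest and PBS highest. It fell by 0.40 ± 0.081 on the log2 scale after ApoE-deficient exosomes (adjusted p = 0.00134), and its value after wild-type exosomes was -0.21 ± 0.081 (adjusted p = 0.179). The difference between the exosomes was -0.19, with an interval of -0.36 to -0.03 and an adjusted p of 0.473. Birc2, which encodes cIAP1 and lies 11.6 kb away, had log2 fold changes of -0.01 and -0.02. The remaining adaptors Ripk2, Malt1, Traf1 and Cflar had -0.10 to 0.21 after ApoE-deficient exosomes and -0.18 to 0.12 after wild-type exosomes, with none called.

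Of the 6 feedback inhibitors, Tnip3 passed in both comparisons and no other did. Tnip3 (ENSMUSG00000044162, chr6:65525313-65634040) encodes ABIN-3, a partner of A20. It had 27.4, 31 and 29.3 CPM after ApoE-deficient exosomes, 30.3, 29.5 and 32.4 CPM after wild-type exosomes and 45.3, 45.04 and 43.8 CPM after PBS. The 6 exosome libraries overlapped each other and lay far below the narrow PBS range. The log2 fold change was -0.62 ± 0.087 after ApoE-deficient exosomes (adjusted p = 5.39e-06) and -0.54 ± 0.087 after wild-type exosomes (adjusted p = 5.82e-05). Its relatives Tnip1 and Tnip2, which encode ABIN-1 and ABIN-2, had log2 fold changes of 0.07 and 0.04 after ApoE-deficient exosomes and 0.04 and -0.0096 after wild-type exosomes, none called.

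Tnfaip3, which encodes A20 itself, had 19.6, 19.2 and 22.9 CPM after ApoE-deficient exosomes, 25.2, 25.6 and 23.6 CPM after wild-type exosomes and 28.9, 23.2 and 25.3 CPM after PBS. The ApoE-deficient libraries lay below every other library. It did not pass, with a log2 fold change of -0.32 ± 0.109 against PBS (adjusted p = 0.0990) and -0.27 ± 0.109 against wild-type exosomes (adjusted p = 0.439). Irak3, the inhibitory IRAK kinase, had -0.05 and -0.13 after ApoE-deficient and wild-type exosomes, and Socs3, a suppressor of cytokine signalling, -0.05 and 0.11, none called. Socs3 was low, at 0.911 to 2.62 CPM, and its PBS libraries were spread widely, with 27, 78 and 77 counts. The SE of 0.42 on its log2 fold changes was too large to resolve differences of this size.

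Of the 6 surface and secreted targets, Icam1 was the member that fell. Icam1 (ENSMUSG00000037405, chr9:21015985-21028817) encodes the adhesion receptor for leukocyte integrins. Its levels were 59.8, 63.3 and 60.7 CPM after ApoE-deficient exosomes, 68.7, 73.6 and 67.9 CPM after wild-type exosomes and 84, 79.2 and 82.4 CPM after PBS. As for Birc3 and Ikbke, the groups were stepped without overlap. The log2 fold change was -0.42 ± 0.063 after ApoE-deficient exosomes (adjusted p = 1.43e-05) and -0.22 ± 0.063 after wild-type exosomes (adjusted p = 0.0296). The second call ended with PBS replicate 1 or 3 or wild-type exosome replicate 1 or 3 left out (adjusted p = 0.0735 to 0.1375). For ApoE-deficient against wild-type exosomes, Icam1 had -0.19 (interval -0.32 to -0.07), which did not pass (adjusted p = 0.221).

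Tnf, the cytokine that both induces and is induced by NF-kB, had 11.6, 13.9 and 13.6 CPM after ApoE-deficient exosomes, 11.7, 14.6 and 9.99 CPM after wild-type exosomes and 15.7, 14.8 and 15.7 CPM after PBS. All exosome libraries lay below all PBS libraries. The log2 fold changes of -0.24 ± 0.14 after ApoE-deficient exosomes (adjusted p = 0.532) and -0.35 ± 0.15 after wild-type exosomes (adjusted p = 0.230) did not pass. Cd83, a surface marker of activated antigen-presenting cells, had -0.05 and 0.003, and Plaur, the urokinase receptor, 0.26 and 0.22, without a call. The costimulatory receptor Cd40 at 1.62 to 3.11 CPM and Ptgs2, the inducible cyclooxygenase, at 0.135 to 0.849 CPM were low. Their SEs of 0.36 and 0.84 were too large to resolve moderate changes.

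Of the 6 intracellular targets, 2 were lower after ApoE-deficient exosomes and 3 after wild-type exosomes, against 2.41% and 2.18% of all genes. Marcksl1 was the member that fell furthest after ApoE-deficient exosomes, whereas Nfkbiz, Tnip3 and Nfkbie fell further than it after wild-type exosomes. Marcksl1 (ENSMUSG00000047945, chr4:129513581-129515985) encodes a small actin-regulating relative of the protein kinase C substrate MARCKS. It had 20.76, 20.79 and 20.85 CPM after ApoE-deficient exosomes, 29.3, 29.95 and 26.5 CPM after wild-type exosomes and 39.6, 35.7 and 39.97 CPM after PBS. The 3 groups were widely separated. The log2 fold change was -0.88 ± 0.095 after ApoE-deficient exosomes (adjusted p = 3.50e-08), a level 45.8% lower, and -0.43 ± 0.094 after wild-type exosomes (adjusted p = 0.00346), a level 25.6% lower. Ehd1 (ENSMUSG00000024772, chr19:6276725-6300096), an ATPase of endosome recycling, had 62.2, 60.1 and 66.3 CPM after ApoE-deficient exosomes, 65.2, 61.8 and 65.5 CPM after wild-type exosomes and 86.5, 80.1 and 86.3 CPM after PBS. Both exosome groups lay below PBS and overlapped each other. Its log2 fold change was -0.42 ± 0.064 after ApoE-deficient exosomes (adjusted p = 1.65e-05) and -0.39 ± 0.064 after wild-type exosomes (adjusted p = 6.98e-05).

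Tnfaip2 (ENSMUSG00000021281, chr12:111442469-111455018), a TNF-induced protein of membrane protrusions, had 578, 572 and 572 CPM after ApoE-deficient exosomes, 508.5, 502 and 518 CPM after wild-type exosomes and 576, 533 and 572 CPM after PBS. Only the wild-type exosome libraries lay below PBS. It fell by 0.14 ± 0.033 on the log2 scale there (adjusted p = 0.00888), a call that ended with PBS replicate 1 (adjusted p = 0.0809) or wild-type exosome replicate 2 (0.0619) left out. After ApoE-deficient exosomes the log2 fold change was 0.03 ± 0.033, with an interval of -0.03 to 0.10. Ier3, an early-response survival gene, had 4.59, 4.09 and 4.14 CPM after ApoE-deficient exosomes, 5.15, 5.50 and 5.97 CPM after wild-type exosomes and 5.50, 6.47 and 8.95 CPM after PBS. It lay lowest in the ApoE-deficient libraries without passing (-0.71 ± 0.22, adjusted p = 0.0593), and passed with DESeq2 (adjusted p = 0.0417) or with PBS replicate 1 left out (0.0293). The kinase gene Pim1 and the stress gene Gadd45b had positive values that did not pass, at 0.24 and 0.13 after ApoE-deficient exosomes and 0.10 and 0.22 after wild-type exosomes. All ApoE-deficient libraries of Pim1 lay above PBS, without a call (adjusted p = 0.0943).

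**Figure D3:**
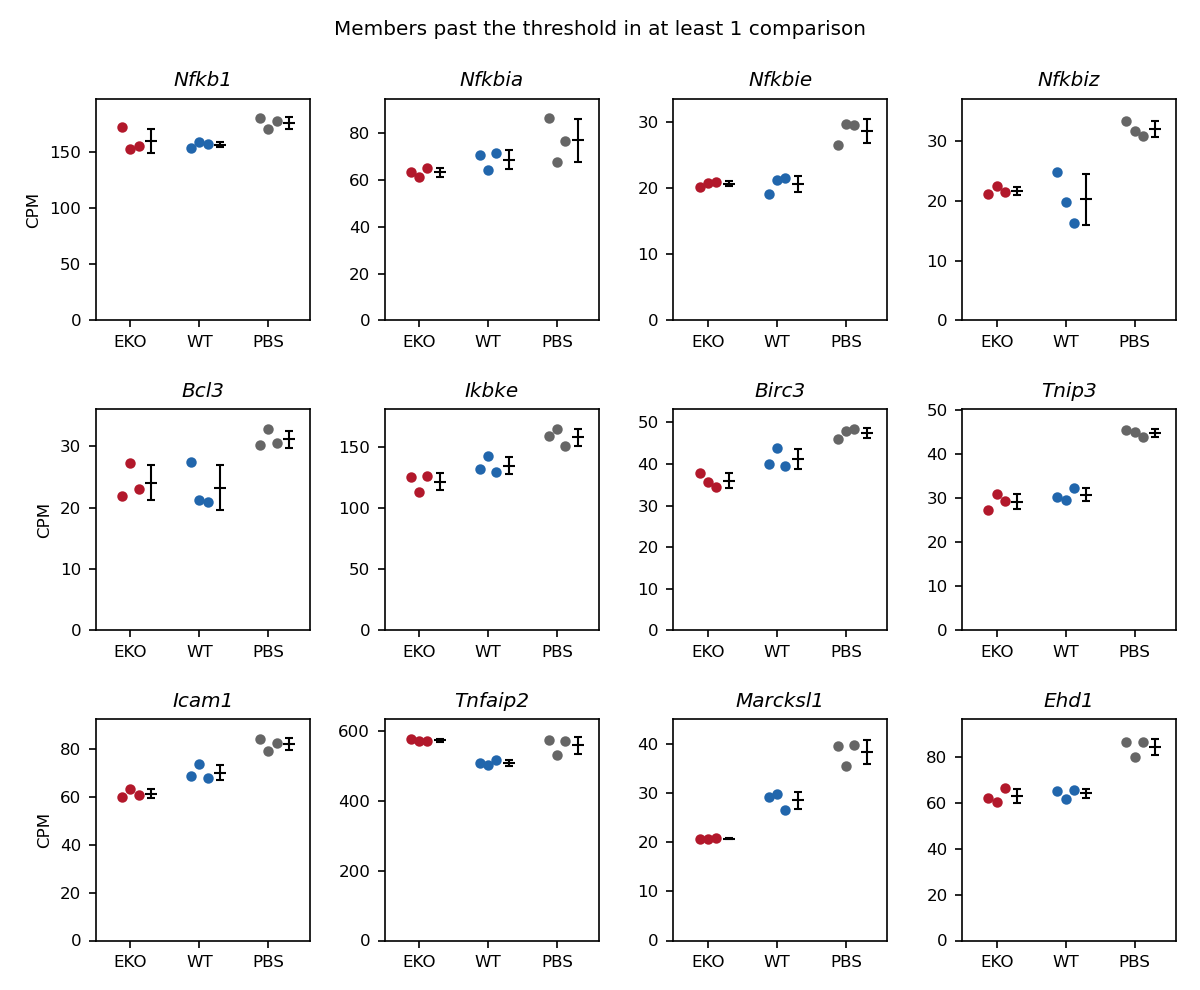
TMM-normalised CPM of the 12 members past the threshold in at least 1 comparison, with a point per library for ApoE-deficient exosomes (EKO), wild-type exosomes (WT) and PBS and the mean ± SD of 3 libraries in black beside them. Both exosome groups sit below every PBS point in Nfkbie, Nfkbiz, Bcl3, Ikbke, Birc3, Tnip3, Icam1, Marcksl1 and Ehd1. The EKO points of Ikbke, Birc3, Icam1 and Marcksl1 lie below the WT points, a difference that passed the direct test for Marcksl1 only.

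Set directly against each other, the exosomes differed in 2 of the 40 members. Marcksl1 was lower after ApoE-deficient than after wild-type exosomes, at -0.46 ± 0.096 (interval -0.65 to -0.26, adjusted p = 0.00728), and Tnfaip2 was higher, at 0.17 ± 0.033 (interval 0.10 to 0.24, adjusted p = 0.00285). Over all genes, 0.413% were called lower and 0.282% higher. The Marcksl1 call ended with ApoE-deficient replicate 1 left out (log2 difference -0.46, adjusted p = 0.0513) and with wild-type exosome replicate 2 left out (-0.42, adjusted p = 0.0708). In 7 members, all libraries of ApoE-deficient exosomes lay below all libraries of wild-type exosomes, and in 4 they lay above, against 7.01% and 7.04% of all genes. For 35 of the 40 members the 95% interval of the difference lay within 1.5-fold either way. The others were Marcksl1, Ier3 and the low genes Socs3, Cd40 and Ptgs2.

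Levels were compared between genes as CPM per kb of merged exon length. After PBS, the highest were Tnfaip2 at 112 CPM per kb, Rela at 58.8, Nfkbia at 47.8 and Tnip1 at 45.8, and the lowest Cd40 at 0.717, Socs3 at 0.630 and Ptgs2 at 0.125, with a median of 9.45 over the members. Marcksl1, at 23.9 CPM per kb after PBS, had 13.0 after ApoE-deficient exosomes and 17.8 after wild-type exosomes. Among the called members, Tnip3 and Nfkbiz had the lowest levels by this measure, at 4.10 and 6.37 CPM per kb after PBS. The place of Tnip3 depends on its merged exon length of 10916 bases. In CPM not divided by length it had 44.7 after PBS, above Nfkbie at 28.7. Neighbours in the middle of the order, such as Nfkbie at 9.43 and Tnf at 9.39, differ by less than the spread between their libraries.

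**Figure D4:**
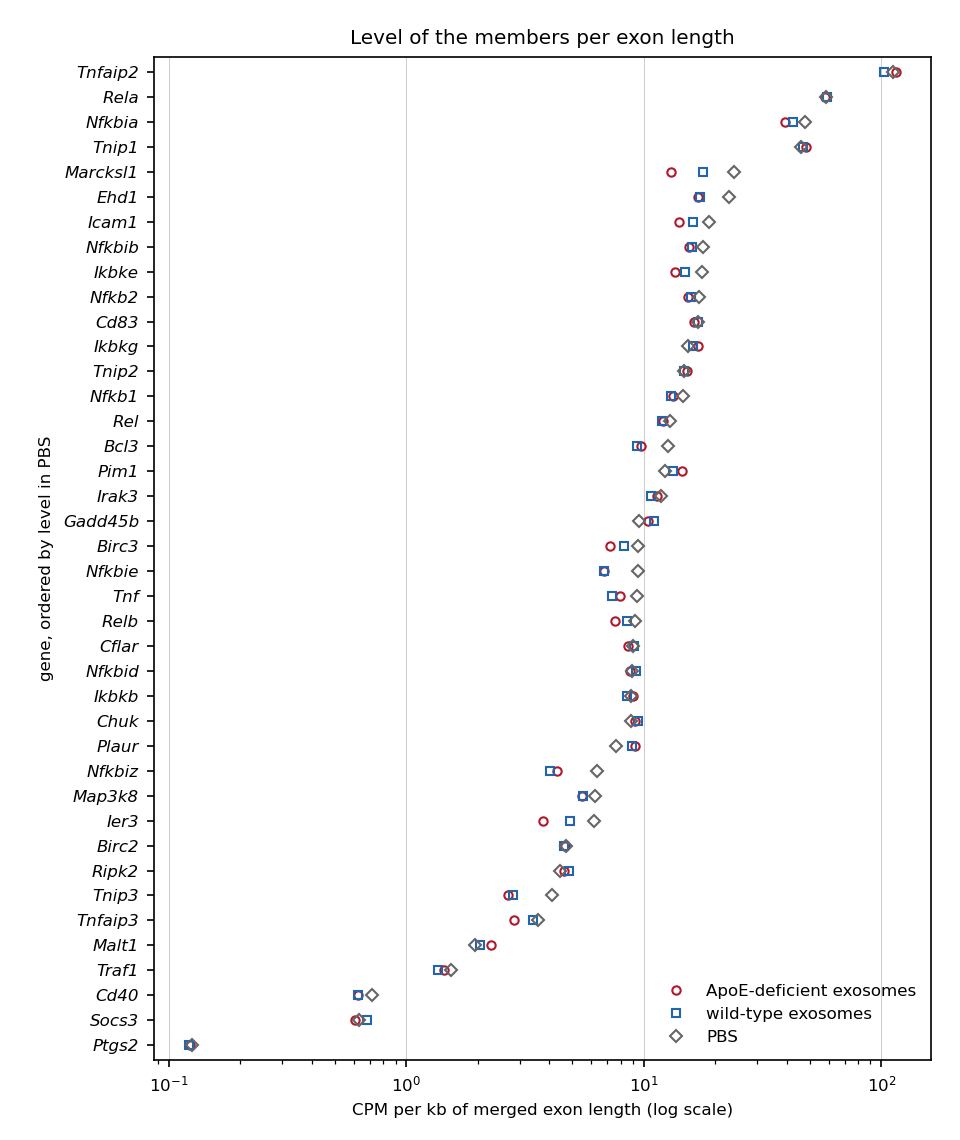
Mean level of each member per kb of merged exon length, on a log scale, for ApoE-deficient exosomes (circles), wild-type exosomes (squares) and PBS (diamonds), with genes ordered by their level after PBS. Levels run from 0.125 for Ptgs2 to 112 for Tnfaip2 after PBS, and circles and squares lie left of the diamonds for called genes such as Marcksl1, Ehd1 and Nfkbiz.

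Other genes of the pathway, a list of 90 with further receptors, adaptors, brakes and targets were tested in the same fit, and 83 of them passed the filter. After ApoE-deficient exosomes 9 were lower and 3 higher than after PBS, against 2.41% and 1.82% of all genes, with a median log2 fold change of -0.04. After wild-type exosomes 5 were lower and 1 higher, against 2.18% and 1.93% of all genes, with a median of -0.05. None of the 28 adaptors and ubiquitin enzymes passed after ApoE-deficient exosomes, and 1, the noncanonical kinase gene Map3k14, was lower after wild-type exosomes (-0.31, adjusted p = 0.0334). Of 27 further targets tested, 7 were lower and 1 higher after ApoE-deficient exosomes and 3 lower and 1 higher after wild-type exosomes. The C-type lectin gene Clec4e was lower in both, at -0.59 (adjusted p = 0.000366) and -0.43 (adjusted p = 0.0152). The cell cycle inhibitor Cdkn1a and the transcription factor Irf1 were lower after ApoE-deficient exosomes, at -0.31 and -0.28, as were the adhesion receptor Cd44 at -0.16 and the cytokine subunit Ebi3 at -0.27. Exons of other genes cover 23.4% of Ebi3. Hif1a, the hypoxia factor, was lower after wild-type exosomes, at -0.21. Against this direction, the survival gene Bcl2l1 was higher after both exosomes, at 0.22 (adjusted p = 0.0211) and 0.27 (adjusted p = 0.00360). The RANK receptor gene Tnfrsf11a was lower after ApoE-deficient exosomes at -0.23 and N4bp1, a brake on the pathway, after both at -0.26 and -0.23. Between the exosomes, Cd44 and Tgm2, the second named after its values were seen, were lower after ApoE-deficient exosomes, at -0.15 and -0.24. The cytokine genes Il6, Il12b and Csf2 and the inducible nitric oxide synthase gene Nos2 were among the 7 genes below the filter.

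Reads of overlapping genes limit some of these values. The exons of 9 members share bases with another gene, all of it on the opposite strand, and 11.7% of the exon length of Icam1, 6.51% of Bcl3, 6.30% of Tnfaip2 and 2.48% of Ikbke is shared. Of the 31 members whose exons share no bases with another gene, 7 were lower after ApoE-deficient exosomes and 6 after wild-type exosomes. Over all genes tested, 2.41% and 2.18% were called lower.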

How the data were processed

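RNA was sequenced from 9 cultures of macrophages in 3 groups of 3. The authors deposited raw, whole-number counts for each Ensembl gene ID in each library. Per the submitters' processing notes, STAR 2.7.5c and GRCm38 were used. Information on trimming, strand option and annotation version was not given in the sources used here. Symbols, coordinates and merged exon lengths came from GENCODE M21, in which all 55536 IDs had a symbol. Groups and replicate numbers came from the sample labels.

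Genes passed filterByExpr at a minimum count of 10 (edgeR 4.0.16, R 4.3.3), which left 13815. With TMM factors, a robust quasi-likelihood model with group as its term was fitted to all 9 libraries, and contrasts were adjusted by Benjamini-Hochberg over all genes tested at a threshold of 0.05. "Adjusted p" means this edgeR value unless another tool is named. SEs and 95% intervals were derived from the F statistics. CPM values use TMM factors. The biological coefficient of variation was 12.0%. No pair of libraries agreed within sampling noise (chi-square per gene 6.76 to 18.4). With 3 against 3 libraries an exact permutation test cannot go below 0.1, so none is given. The steps were tested on simulated data.

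The members, their roles and the lists were chosen with earlier results of these data known. All members are accounted for. Values in every library are given for members past the threshold in any comparison, the NF-kB subunits, Tnf, Nfkbia and Tnfaip3, and, chosen after its values were seen, Ier3. Up to 10 other pathway genes with the lowest p against PBS are named. Whole promoters were to be shown for at most 6 members called in both comparisons with PBS. The choice of 3 of them, and the shorter stretches, were made after the matches were seen. Alternatives were RLE size factors, library totals, no filter, limma-voom (limma 3.58.1), DESeq2 1.42.0, a replicate block, only the 6 libraries compared, and leaving out each library. The block's same-numbered libraries showed no shared deviation (correlations of -0.035 to 0.0402). This cannot show whether they came from the same mouse or exosome preparation.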

Additional observations from a re-analysis of the deposited data

Results flagged for a closer look

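The effects of the exosomes against PBS differed by the direct test in 2 members. Marcksl1 had a log2 difference of -0.46 between ApoE-deficient and wild-type exosomes, where every ApoE-deficient library (20.76 to 20.85 CPM) lay below every wild-type exosome library (26.5 to 29.95 CPM). Tnfaip2 had a difference of 0.17, where every ApoE-deficient library (572 to 578 CPM) lay above every wild-type exosome library (502 to 518 CPM). Groups of 3 libraries were too small to look for single outlying libraries.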

How the results depend on the processing

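The counts of members lower than PBS were 10 after ApoE-deficient and 10 after wild-type exosomes with RLE size factors, library totals, no filter, limma-voom, the replicate block and only the 6 libraries compared. DESeq2 gave 11 and 10. Leaving out a library gave 9 to 10 for ApoE-deficient and 7 to 10 for wild-type exosomes, with 7 when wild-type exosome replicate 2 or 3 or PBS replicate 1 was left out, and no setting called a member higher than PBS. Between the exosomes, leaving out a library gave 0 to 1 member lower, with 0 when ApoE-deficient replicate 1 or wild-type exosome replicate 2 was left out, and 1 higher in every setting. Over all genes between the exosomes, the count of lower genes was 57 in edgeR, 89 with DESeq2 and 31 to 67 without a library, and the count of higher genes was 39, 64 with the replicate block and 21 to 48 without a library, with the lowest counts when ApoE-deficient replicate 1 or 2 or wild-type exosome replicate 2 or 3 was left out. The test among the 3 groups called 12 members, and 9 to 11 without a library. It was not run on only the 6 libraries compared, which hold 2 groups. The cause of these shifts was not tested, other than that leaving out a library leaves fewer samples. Of 1920 member values under alternatives, 25 lost a call, 4 gained one and none that was called changed sign. Another 78 values not called either way changed sign. Calls held in every alternative for 8 of 10 members after ApoE-deficient exosomes (Birc3, Ehd1, Icam1, Ikbke, Marcksl1, Nfkbie, Nfkbiz, Tnip3), for 5 of 10 after wild-type exosomes (Ehd1, Marcksl1, Nfkbie, Nfkbiz, Tnip3) and for Tnfaip2 between the exosomes. The replicate block changed no call of a member, and its counts were 10, 10 and, between the exosomes, 1 lower and 1 higher. Scaling moved the median gene by at most 0.0088 on the log2 scale. Large SEs limit Ptgs2, Socs3 and Cd40.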
